A study of Mus musculus with 8 samples.

Results

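Enzymes that join glutamate to alpha-ketoglutarate, and the enzyme that makes glutamine from glutamate, were followed in regenerating mouse muscle with and without disruption of Psat1. The members were taken by gene name and are Glul, Glud1, Got1, Got2, Gpt, Gpt2, Oat, Bcat1 and Bcat2, which is 9 of 16573 genes and 14 of 36743 rows in the authors' deposited table. The libraries hold poly(A) RNA from Mus musculus, either from muscle stem cells sorted out of injured tibialis anterior with extensor digitorum longus or from these muscles whole, taken 3 days after an injection of notexin at 2 mg/mL. Notexin, a phospholipase from snake venom, breaks down the fibres, after which muscle stem cells multiply and rebuild them. The groups are Ctrl and Psat1iKO, with n = 4 libraries each, the same tissue, injury and time. Strain, age, the deleted exons and the way the deletion was induced are not stated in the labels, nor is it said whether each library is a mouse of its own, so the errors describe the spread between libraries, which may be technical. The cell type in the labels is the muscle stem cell, sorted by FACS, while the text on the design describes extraction from the muscles; the marker levels given at the end bear on this.

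Glutamate is the main amino group donor of the cell. Aminotransferases move its amino group to a keto acid and leave alpha-ketoglutarate, which enters the citric acid cycle and is the co-substrate of many dioxygenases; most of these reactions run in either direction. Psat1 is itself such an enzyme, since it makes phosphoserine from glutamate and phosphohydroxypyruvate, and every member named above touches the same pool of glutamate or alpha-ketoglutarate. In skeletal muscle, glutamine synthesis, alanine release and the first step of branched-chain amino acid breakdown are known functions of this family.

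None of the 9 genes passed the test between Psat1iKO and Ctrl, while the targeted gene fell. For Psat1, on chromosome 19 from 15905123 to 15925059 (GRCm38), the leading row Psat1.1 stood at -0.49 ± 0.0675 (SE) on the log2 scale, with a DESeq2 adjusted p of 1.22e-09 from the authors' deposited table. Here a leading row is the row of highest mean count of a gene, and a change is Psat1iKO minus Ctrl. Psat1.1 held 99.6% of the mean counts of its gene, and its change as a fold was 0.711. The other row of the gene, named Psat1, stood at 0.68 ± 0.514 in the authors' deposited table on a mean count of 76.5, and was not called. Over the 9 enzymes, the log2 fold changes of the leading rows in the authors' deposited table ran from -0.09 to 0.07 with a median of -0.01, 6 below 0 and 3 above. Among all leading rows the median was -0.01 as well. A row is said to be called at an adjusted p under 0.05 by DESeq2 in the authors' deposited table, which holds for 0 of the 14 rows, against 0.656% of all rows. On leading rows 0 of 9 were called against 0.338% of all leading rows, so a count of 0 is near the background. At an unadjusted p under 0.05 there were 0 of 9 leading rows, where all leading rows gave 4.09%, and 1 of 14 rows, where all rows gave 6.04%. In the authors' deposited table, the value adjusted by DESeq2 was above 0.99 for 13 of the 14 rows, as it was for 90.8% of all rows.

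**Figure D1:**
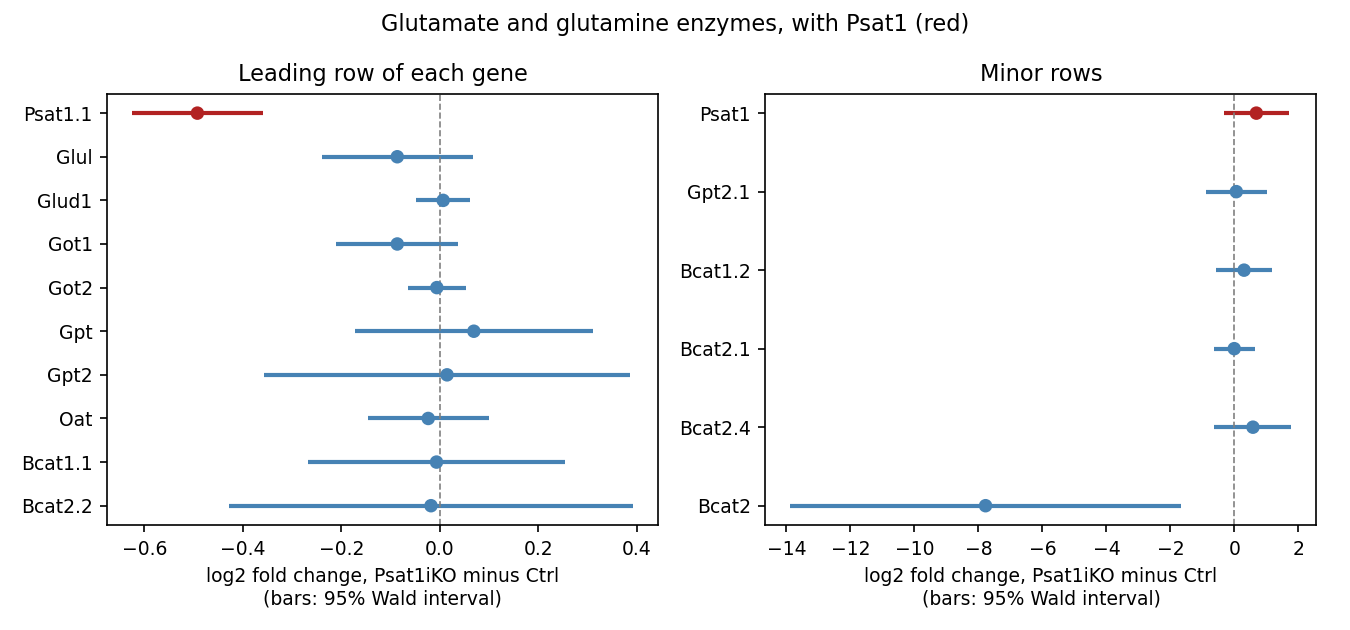
Log2 fold change of each row, Psat1iKO minus Ctrl, with the 95% Wald interval as a bar, for the leading rows (left) and minor rows (right); Psat1 is red. All 9 leading rows of the enzymes cross 0, and Psat1.1 lies at -0.49.

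On the leading rows the errors were small enough to bound the changes. The 95% interval is the log2 fold change plus or minus its SE times the normal quantile for 95%. It lay inside a 1.5-fold change in either direction for 9 of 9 leading rows. Inside 1.2-fold it lay for 5 of 9 (Glul, Glud1, Got1, Got2 and Oat). The bound does not cover all of Bcat2, whose leading row held 56.5% of the gene. Its row Bcat2.1, with 37.8%, had an interval of 0.638 to 1.55 as a fold. Among the 10260 leading rows whose mean reached 100, 79.1% were inside 1.5-fold and 44.2% inside 1.2-fold. The fall of Psat1.1 itself, -0.49, lay below the interval of the leading row for 9 of the 9 enzymes. For 8 of them that whole interval lay above the interval of Psat1.1. Bcat2 was the exception, with a lower bound of -0.43 where the upper bound of Psat1.1 was -0.36. The depth of each library is unknown, because the deposited mean is taken over all of them. Group means are therefore rebuilt from that mean and the fold change and are called fitted means. They carry no spread of their own, and no value per library can be shown.

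Glul encodes glutamine synthetase, which joins ammonia to glutamate, and lies on chromosome 1 from 153899929 to 153909723. Its fitted mean normalized count was 6467 in Ctrl and 6092 in Psat1iKO. In the authors' deposited table its log2 value was -0.09 ± 0.0782 (SE), with an interval from -0.24 to 0.07. This was, with Got1, the lowest value among the leading rows, and it spans 0. The hairpin of the microRNA gene Mir8114, on chromosome 1 from 153899926 to 153900036, shares 93 of its 111 bases with exon 1 of the main Glul transcript, from 153899944 to 153900059. Mir8114 has a row of its own with a mean count of 100.1 and a log2 value of -0.16 ± 0.25 in the authors' deposited table. Reads from the exon and from the hairpin cannot be told apart over these bases. The mature microRNA falls inside the exon and is shown for that reason, from RefSeq on GRCm38.p6, plus strand, chr1:153899989-153900009, with its seed (bases 2 to 8) in capitals.
mmu-miR-8114: uCACCCAUcuccucuccgccu

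Glud1 encodes the mitochondrial glutamate dehydrogenase, which releases ammonia from glutamate to give alpha-ketoglutarate, on chromosome 14 from 34310727 to 34345033. The fitted means were 10944 in Ctrl and 10997 in Psat1iKO. Its log2 change of 0.01 ± 0.028 (SE) in the authors' deposited table had an interval from -0.05 to 0.06, which as a fold is 0.967 to 1.04. Among 932 leading rows with a mean within 2-fold of its own, 7.94% had a smaller error. Glud1 was thus among the most closely measured of the members.

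Got1 and Got2 encode the cytosolic and mitochondrial aspartate aminotransferases, which exchange the amino group between glutamate and aspartate and form part of the malate-aspartate shuttle. Got1 lies on chromosome 19 from 43499752 to 43524605, 27.6 Mb from Psat1. It had fitted means of 4806 in Ctrl and 4527 in Psat1iKO. The authors' deposited table lists -0.09 ± 0.0632 (SE) on the log2 scale, with an interval from -0.21 to 0.04. Got2 lies on chromosome 8 from 95864133 to 95888401 and had fitted means of 14273 and 14216. For it the authors' deposited table gives -0.01 ± 0.0304 (SE), and the interval ran from -0.07 to 0.05, or 0.956 to 1.04 as a fold. Neither isozyme was called.

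Got2 has a close copy in the genome, and its counts are uncertain to that extent. The processed pseudogene Got2-ps1, on chromosome 5 from 138364260 to 138365552, matched 1279 of the 1290 coding bases of Got2 without a gap (99.1%), with an identical run of up to 315 bases and 0 stop codons in frame before its last codon. Of 2481 stretches of 50 bases in the main transcript of Got2, 32.3% occurred in this pseudogene. No row carries the name of the pseudogene, and how the authors' counting placed such reads is not stated in the labels. Coding bases 400 to 489 of Got2, which hold the most mismatches in any run of 90 (3), are shown beside the copy to let the difference be seen. They come from GENCODE M21 on GRCm38 in the sense direction, and capitals mark the mismatches.
Got2: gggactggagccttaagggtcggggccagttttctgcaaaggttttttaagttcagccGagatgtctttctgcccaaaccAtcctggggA
Got2-ps1: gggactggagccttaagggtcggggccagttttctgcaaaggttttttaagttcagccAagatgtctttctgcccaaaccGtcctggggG

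Shared stretches were fewer for the other members. They made up 14.2% of the 50-base stretches of Glul, mostly in the pseudogene Glns-ps1, then 8.17% for Glud1 and 1.67% for Gpt2. For Got1, Gpt, Oat, Bcat1 and Bcat2 the share was 0% of the annotated transcripts searched.

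Gpt and Gpt2 encode the cytosolic and mitochondrial alanine aminotransferases, which make alanine from pyruvate with glutamate as the donor. Gpt, on chromosome 15 from 76696726 to 76699675, had fitted means of 169.6 in Ctrl and 177.9 in Psat1iKO. Its log2 change was 0.07 ± 0.123 (SE) in the authors' deposited table, with an interval from -0.17 to 0.31. Gpt2, on chromosome 8 from 85492576 to 85528902, had fitted means of 2471 and 2497 on its leading row, which held 97.5% of the gene. The authors' deposited table gives 0.01 ± 0.19 (SE) for that row and 0.06 ± 0.484 for the minor row Gpt2.1, neither of them called. Gpt2 was abundant yet loosely measured: 94.4% of leading rows with a mean within 2-fold of its own had a smaller error. For Gpt the same share was 3.49%.

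Oat encodes ornithine aminotransferase, a mitochondrial enzyme that links ornithine to glutamate and proline, on chromosome 7 from 132557475 to 132576398. Fitted means of 2848 in Ctrl and 2802 in Psat1iKO correspond to a log2 change of -0.02 ± 0.063 (SE) in the authors' deposited table, and the interval ran from -0.15 to 0.10.

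Bcat1 and Bcat2 encode the cytosolic and mitochondrial aminotransferases of leucine, isoleucine and valine, which pass the amino group to alpha-ketoglutarate. Bcat1 lies on chromosome 6 from 144993835 to 145076157. Its leading row Bcat1.1, with 97.5% of the gene, had fitted means of 2249 and 2239 and, on the log2 scale, -0.01 ± 0.134 (SE) in the authors' deposited table. The minor row Bcat1.2 stood at 0.30 ± 0.451 in the authors' deposited table on a mean count of 58.5, and was not called.

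Bcat2, on chromosome 7 from 45568967 to 45589710, was the most divided member, with 4 rows. Bcat2.2 held 56.5% of the mean counts of the gene, Bcat2.1 37.8%, Bcat2.4 4.26% and the row named Bcat2 1.45%. The abundant rows had nearly equal fitted means: Bcat2.2 had fitted means of 744.9 in Ctrl and 735.8 in Psat1iKO at a log2 change of -0.02 ± 0.21 (SE), and Bcat2.1 had 496.0 and 493.6 with -0.01 ± 0.327, from the authors' deposited table. Bcat2.4 had 0.58 ± 0.614 in the authors' deposited table and was not called. The row named Bcat2 had fitted means of 37.9 in Ctrl and 0.173 in Psat1iKO, with -7.78 ± 3.11 in the authors' deposited table. It is the 1 row of the 14 with an unadjusted p under 0.05, and its DESeq2 adjusted p was 0.461 in the authors' deposited table. The size of the change is loosely set, with an interval from -13.87 to -1.68. Over the 2162 leading rows with a mean within 2-fold of its own, the median error was 0.631. Of these rows 99.2% had a smaller error than the row named Bcat2. The fitted mean of 0.173 in Psat1iKO is very low, and the counts per library behind it are not known. Summed over rows, Bcat2 had 1324 in Ctrl and 1296 in Psat1iKO, a log2 difference of -0.03 that has no test.

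**Figure D2:**
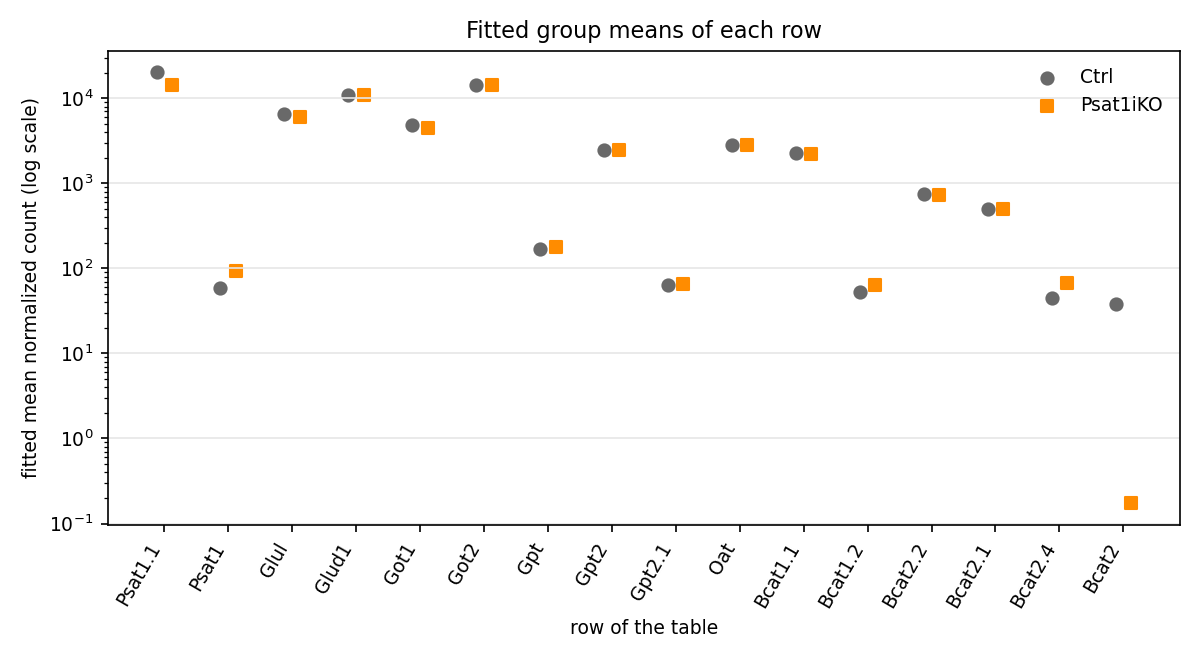
Fitted mean normalized count on a log scale for each row in Ctrl (grey circles) and Psat1iKO (orange squares), with no error since no values per library were used. The groups lie together in the enzymes' abundant rows, apart in Psat1.1 (20204 and 14362), and far apart in the rare row named Bcat2.

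Rows could not be assigned to isoforms, but their number follows the annotation. For 99.96% of 16462 genes matched by symbol, the highest row number was within the number of RefSeq transcripts of that gene. Glul, Glud1, Got1, Got2, Gpt and Oat have 1 RefSeq transcript and 1 row each. Gpt2 has 2 and 2, Bcat1 has 3 transcripts and 2 rows, and Bcat2 has 5 transcripts and 4 rows. The 3 members with several rows had the largest errors of the leading rows. The same was seen in the table as a whole: between mean counts of 1000 and 5000, the median error was 0.0641 over 1550 leading rows of genes with 1 row and 0.0903 over 2518 of genes with more.

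**Figure D3:**
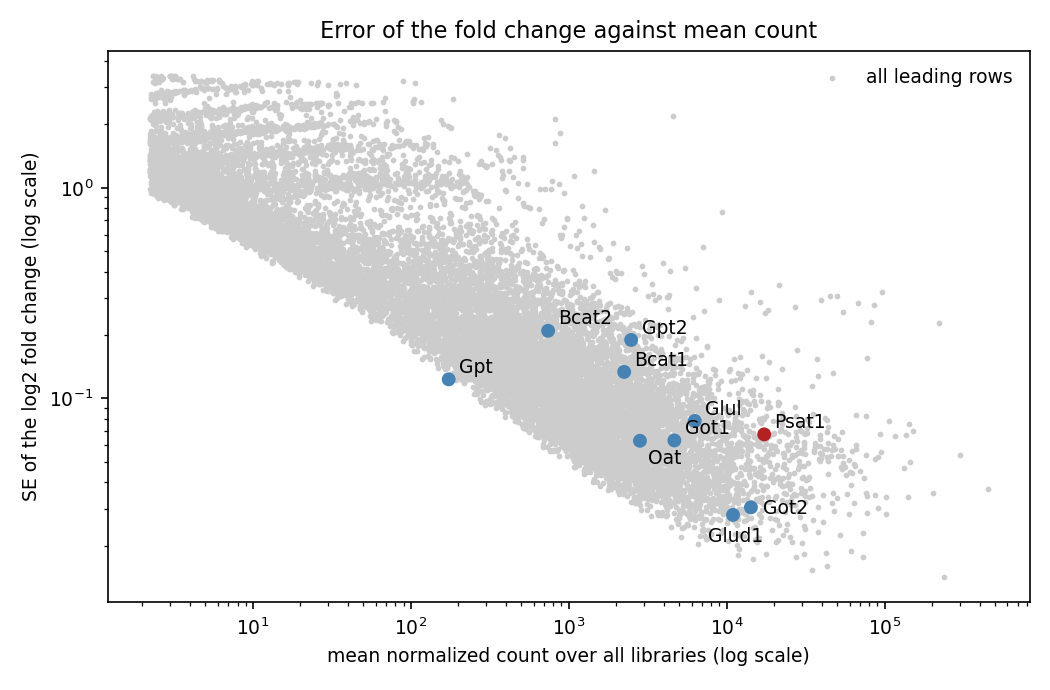
Standard error of the log2 fold change against mean normalized count, both on log scales, for all leading rows (grey), the 9 enzymes (blue) and Psat1 (red). Gpt2, Bcat1 and Bcat2 sit high in the cloud for their mean count, and Gpt, Glud1 and Got2 low.

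Levels between genes were compared as mean normalized count per kilobase, using the lengths of the GENCODE transcripts matched to RefSeq. Got2 was highest at 5630 per kilobase, followed by Glud1 at 3236, Got1 at 2267, Glul at 2249, Oat at 1313 and Gpt2 at 700.5. Gpt was lowest at 96.9. Bcat2 came to between 630 and 778 and Bcat1 to between 294 and 901, depending on which of their transcripts the counts came from, so the order of these genes and Gpt2 is not fixed. Of the paired isozymes, the mitochondrial form had the higher level for aspartate (2.48 times) and alanine (7.23 times) aminotransferase. Got1 and Glul were almost level, and no spread over libraries can be given for any of these levels.

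The wider pathway was described with 7 lists of 80 genes, of which 75 were measured. By the authors' deposited table and DESeq2, 1 of the 75 was called on its leading row (1.33%, against 0.338% of all leading rows), and that gene was Psat1. The median log2 fold change was -0.02, with 48 genes below 0 and 27 above. At an unadjusted p under 0.05 there were 5 lower, Psat1 included, and 1 higher.

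The glutaminases and the glutamine amidotransferases, which spend glutamine on nucleotides, asparagine and hexosamine, had 0 of 15 called and 0 at an unadjusted p under 0.05. Their median was -0.02. In the authors' deposited table Ctps2, a CTP synthase, stood at -0.39 ± 0.201, Qrsl1, a subunit of the mitochondrial glutamyl-tRNA amidotransferase, at -0.19 ± 0.13 and the glutaminase Gls2 at 0.25 ± 0.245. Of 5 other transaminases, Psat1 was the 1 called, and the median was -0.12. The kynurenine aminotransferase Kyat3 had 0.21 ± 0.176 on a mean count of 195.9 and the aminoadipate aminotransferase Aadat had -1.77 ± 1.23 on 8.75, from the authors' deposited table. Among dehydrogenases that make or use alpha-ketoglutarate 0 of 8 were called and the median was -0.03. Idh3a was the 1 of them with an unadjusted p under 0.05. Idh3a, a subunit of the mitochondrial isocitrate dehydrogenase, had -0.04 ± 0.0192 and Idh1, the cytosolic enzyme, -0.18 ± 0.107 in the authors' deposited table. Dlst, of the alpha-ketoglutarate dehydrogenase complex, stood at 0.03 ± 0.0228 there.

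For the list of the malate-aspartate shuttle of Got1 and Got2 together with mitochondrial glutamate carriers, 0 of 7 genes were called. Slc25a11 was the 1 of them with an unadjusted p under 0.05. In this list 6 lay below 0, with a median of -0.03. Slc25a11, the mitochondrial carrier of malate and alpha-ketoglutarate, had fitted means of 2331 in Ctrl and 2109 in Psat1iKO. Its value was -0.14 ± 0.0596 in the authors' deposited table with a DESeq2 adjusted p of 0.512. The cytosolic malate dehydrogenase Mdh1 stood at -0.03 ± 0.0544 and the glutamate carrier Slc25a18 at -1.24 ± 1.33 on a mean of 3.68, from the authors' deposited table. Enzymes of branched-chain breakdown downstream of Bcat1 and Bcat2 had a median of -0.01, with 0 of 17 called and 0 at an unadjusted p under 0.05. Bckdhb, a subunit of the branched-chain keto acid dehydrogenase, had -0.24 ± 0.191, Mccc2, of leucine breakdown, -0.11 ± 0.0892 and Hibch, of valine breakdown, 0.07 ± 0.0647 in the authors' deposited table.

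Plasma membrane carriers had 0 of 15 called and a median of 0.01. Slc43a2, a carrier of large neutral amino acids, was the 1 gene of the 75 with a higher value at an unadjusted p under 0.05, with fitted means of 1081 in Ctrl and 1432 in Psat1iKO. The authors' deposited table gives it 0.40 ± 0.138 with a DESeq2 adjusted p of 0.211. Its relative Slc43a1 stood at 0.45 ± 0.265 and the glutamine carrier Slc38a2 at 0.07 ± 0.0422 in the authors' deposited table. In proline and ornithine metabolism, around Oat, 8 of 9 genes lay below 0 and 0 were called. At an unadjusted p under 0.05 there were 2 of the 9, both lower. The arginases Arg2 and Arg1, which make ornithine, had -1.94 ± 0.949 and -2.76 ± 1.54 in the authors' deposited table. Both arginases were rare, at mean counts of 8.17 and 2.80.

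**Figure D4:**
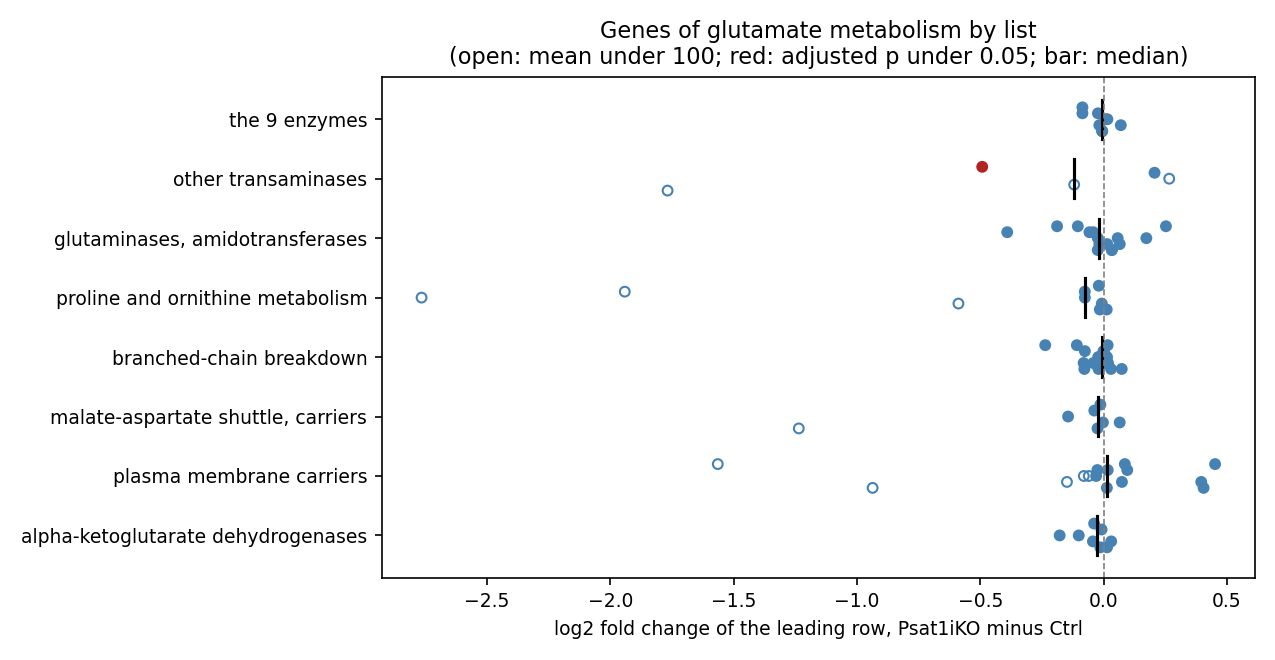
Log2 fold change of the leading row of each gene, Psat1iKO minus Ctrl, by list; open points have a mean count under 100, red marks an adjusted p under 0.05 and the black bar is the median. The 9 enzymes lie between -0.09 and 0.07, and the values below -1 in other lists belong to rows with a mean under 100, while Psat1 (-0.49) and Slc43a2 (0.40) are abundant.

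Markers of muscle stem cells and myoblasts had a median mean count of 12505 (9 of 9 measured), against 393.7 for pericytes and smooth muscle, 169.7 for adult myofibres, 80.4 for monocytes and macrophages, 58.0 for fibro-adipogenic progenitors, 18.7 for endothelial cells, 9.01 for erythroid cells and 5.31 for neutrophils. The median of stem cell and myoblast markers was thus far above that of every other list here, but single genes overlapped. Among stem cell and myoblast markers Pax7 had a mean count of 1060 and Calcr 29.1. The myofibre marker Acta1 had 5463 and the smooth muscle marker Acta2 2011, each the highest of its list. The remaining myofibre markers lay between 6.02 (Myh2) and 1304 (Tnnt3). The remaining pericyte and smooth muscle markers lay between 19.0 (Kcnj8) and 706 (Cspg4). No library of whole muscle was compared. Of the muscle stem cell and myoblast markers, the authors' deposited table calls Myod1, at 0.16 ± 0.0386 (DESeq2, adjusted p 0.0058). Macrophage markers, of which 9 of 12 were measured, all lay below 0 with 0 called, and their summed fitted means were 3322 in Ctrl and 740 in Psat1iKO. Most of that sum came from Lyz2 (1849 in Ctrl and 299 in Psat1iKO) and Cd14 (654 and 147). Their log2 intervals were wide, from -4.87 to -0.39 and from -4.05 to -0.25. All 6 endothelial markers lay below 0 too (141 and 77.2 in sum), and 5 of 6 pericyte and smooth muscle markers above 0 (3062 and 4129), with 0 leading rows called in either. Among the pericyte and smooth muscle markers 1 minor row was called, Myh11.2, at 4.80 ± 1.33 on a mean of 52.6 in the authors' deposited table, and Rgs5 stood at 1.04 ± 0.352 on its leading row there, not called. The lists of myofibre, progenitor, neutrophil and erythroid markers also had 0 called. Arg1 and Glul are expressed in macrophages as well as in other cells. The part of these cell types in the values of Glul, Arg1 and the other genes was not tested. Fewer cells of a type and less RNA per cell cannot be told apart in such libraries.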

How the data were processed

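Per the submitters' processing notes, the authors used the build mm10, HISAT2 (version 2.2.1) and DESeq2 (version listed: 4.2.0); the labels do not state the counting program, annotation or strand setting. The authors deposited a table of the comparison with, per row, a signal (the mean normalized count over all libraries, lowest 2.22), a log2 fold change coded Ctrl over Psat1iKO with its error, a Wald score, a p-value and its adjusted value. The deposited adjusted p-value equals Benjamini-Hochberg adjustment over all rows within 1.39e-05. Signs were turned to Psat1iKO minus Ctrl, after which the leading row of the targeted gene Psat1 stood at -0.49. Eno1b is listed by the authors among genes higher in Psat1iKO, but its own change is not given here. The deposited lists of enriched terms name 0 of the 9 enzymes. Since none of the 9 was called, this count is not a separate result, and the share of all genes named there was not computed.

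Computed here with Python 3.11.15 and pandas 2.3.3: fitted means (equal groups assumed), intervals (95%), gene sums, levels per kilobase, list counts, and identical stretches of 50 bases between GENCODE M21 transcripts. The adjustment was tested on simulated fold changes. The formula for the fitted means was checked only to return known group means from exact inputs, and no counts were simulated. No count test was possible without values per library. All 9 members, Psat1, and per list the called genes and up to 3 of smallest p are named, except 1 that is not reported here, and all members passed the table's own filter. Members and lists were chosen with earlier results of these data known.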

Additional observations from a re-analysis of the deposited data

How the results depend on the processing

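The count of called enzymes stayed at 0 of 14 rows and 0 of 9 leading rows at an adjusted p under 0.1. It did so as well with the adjustment redone over rows of mean at least 100. For the leading rows it also stayed at 0 with the adjustment redone over leading rows alone. Requiring a 2-fold change in addition can only lower a count, so that setting could not change a 0. The smallest unadjusted p of the 9 leading rows was 0.173 (DESeq2 Wald test), so the other settings had little room to change 0 of 9. At an unadjusted p under 0.05 the count was 1 of 14 rows, the row named Bcat2, and 0 of 9 leading rows. The 1 called gene of the wider lists, Psat1, became 0 when a 2-fold change was required. Of all rows, 241 were called; adjusting over rows whose mean reached 100 gave 85, and adjusting over leading rows gave 37. Using gene sums, or centring on the median of rows with a mean of at least 100 (-0.01), moved each of the 9 log2 fold changes by less than its own SE; the sign of Bcat1 turned under both (0.00 in each), and that of Got2 under centring (0.00), all near 0. No paired analysis was possible because the deposited columns carry no values per library; leaving out replicates was not run for the same reason.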
